A study of Mus musculus with 8 samples.

Results

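The genes described here encode subunits of AP-1, a transcription factor built as a dimer of Fos, Jun and related basic leucine zipper (bZIP) proteins. They are the 9 rows of the deposited table whose symbol is Fos, Fosb, Fosl1, Fosl2, Jun, Junb, Jund, Atf3 or Maff, 9 of 24883 gene rows, chosen by name. RNA was sequenced from visual cortex of adult C57BL/6J mice, 4 samples that had received an antisense LNA oligonucleotide complementary to miR-29a and 4 that had received an LNA oligonucleotide of scrambled sequence. Both groups share the intracortical injection, given to all 8 samples at postnatal day 122, and the harvest at day 129, 7 days later. An LNA oligonucleotide is a short nucleic acid with chemically locked sugars that pairs with a microRNA and blocks it. Nothing in the labels ties each sample to an animal of its own. The p-values therefore reflect sample-to-sample spread that could be technical.

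Fos proteins cannot pair with themselves and need a partner such as Jun to bind DNA, whereas Jun proteins can also pair with each other. AP-1 dimers bind the short sequence TGACTCA. In cortical neurons Fos, Fosb and Junb are immediate early genes, which calcium entry and synaptic activity switch on within minutes and without new protein synthesis, and light reaching the eye does this in the visual cortex. Jund is made at a steadier level, Fosl2 follows more slowly, and Atf3 and Jun rise in injured neurons. Atf3 and the small Maf protein Maff are bZIP proteins that can pair with some of the Fos or Jun proteins.

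The sequences that link the treatment to these genes are the microRNA and its matches. Mature miR-29a, at chr6:31062673-31062694 on the minus strand, is shown with its 2 relatives and the seed (bases 2 to 8) in capitals, because all 3 share the seed and could act on the same matches (RefSeq, GRCm38.p6).
mmu-miR-29a-3p: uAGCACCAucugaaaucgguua
mmu-miR-29b-3p: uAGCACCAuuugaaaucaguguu
mmu-miR-29c-3p: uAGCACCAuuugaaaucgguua
The longest annotated 3' untranslated region of each gene (GENCODE M21) was searched for TGGTGCT, the complement of the seed. It occurred in 2 of the 9 genes, Fos and Fosl1, once in each, against 13.5% of 20048 searched genes. These matches are shown with their surroundings and the match in capitals.
Fos, chr12:85476844-85476850, plus strand: tggaattaaccTGGTGCTggattgtatct
Fosl1, chr19:5455331-5455337, plus strand: acatcccttgcTGGTGCTactccaagcca
The Fosl1 match is followed by an A and is an 8mer, the one in Fos is a 7mer. No match was present in Fosb, Fosl2, Jun, Junb, Jund, Atf3 or Maff. A match is a description of the letters and not a shown site. All 9 genes held the pentamer ATTTA, the core of the AU-rich elements that make Fos mRNA short-lived, with 4 copies in Fos and 8 in the 4653 nt of Fosl2, against at least 1 copy in 66.2% of searched genes.

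Fos, Fosb, Fosl2 and Junb read higher in every anti-miR-29a library than in every scrambled library, and Jun and Jund did not separate the groups. Values are the deposited FPKM, fragments scaled to transcript length and library size, so that levels can be compared between genes. Rows with a mean of at least 0.5 FPKM were tested with limma on log2(FPKM + 0.1) over 13912 rows, a scale on which the change of low genes is understated. Of the 9 genes 7 passed this filter. None of the 7 passed at a Benjamini-Hochberg adjusted p of 0.05, a threshold that 0.0144% of all tested rows met. At an unadjusted p under 0.05, 4 of the 7 were higher and 0 lower by limma, where 7.54% of all tested rows were higher and 3.18% lower. The groups did not overlap, anti-miR-29a above scrambled, in the same 4 genes, and in 4.02% of all tested rows. After quantile normalization, median centring or removal of the length and GC trend Fos, Fosl2 and Junb were apart, and Fosb overlapped. Among all tested rows 375 of 13912, 407 of 13912 and 325 of 13785 were apart and higher under these 3, in the same order. The median difference of the 7 genes was 0.82 log2 units and that of all tested rows 0.026.

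Fos, the best known marker of recently active neurons, lies on chromosome 12 at 85473890 to 85477273 (mm10). It read 48.1, 57.7, 51.8 and 45.3 FPKM in anti-miR-29a replicates 1 to 4, against 12.6, 34.7, 41.1 and 37.1 FPKM in scrambled replicates 1 to 4. The groups did not overlap, and scrambled replicate 1 stood far below the other scrambled libraries, at 0.334 of their mean. The difference was 0.82 log2 units with a standard error of 0.31 (limma, unadjusted p = 0.0262, adjusted p = 0.394). An exact two-sided permutation test over 70 relabellings gave p = 0.0286, the smallest it can give. Without scrambled replicate 1 the difference was 0.43 with a standard error of 0.092 (limma, unadjusted p = 0.00133, adjusted p = 0.243). The smaller difference came with a smaller spread, because the SD of the scrambled libraries on the log2 scale was 0.79 with that library and 0.12 without it.

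Fosb encodes a Fos protein whose shortened form, made by alternative splicing, builds up with repeated activity, and the table gives 1 row for both forms. It read 13.6, 11.4, 11.9 and 10.8 FPKM in anti-miR-29a replicates 1 to 4, against 4.02, 5.96, 10.7 and 7.59 FPKM in scrambled replicates 1 to 4. The groups did not overlap, but anti-miR-29a replicate 4, the lowest of its group, lay close above scrambled replicate 3, the highest of the other, and under each of the 3 other scalings the groups overlapped. The difference was 0.83 log2 units (standard error 0.24; limma, adjusted p = 0.273; exact permutation p = 0.0286), and 0.59 without scrambled replicate 1 (limma, adjusted p = 0.323).

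Fosl2, which encodes the Fos-related protein Fra-2, had the smallest p of the family. It read 5.37, 7.25, 7.62 and 7.47 FPKM in anti-miR-29a replicates 1 to 4, against 3.07, 3.25, 4.29 and 3.79 FPKM in scrambled replicates 1 to 4. The groups were apart, the scrambled libraries lay close together, and anti-miR-29a replicate 1 was the lowest of its group. The mean was 6.93 ± 1.05 FPKM in anti-miR-29a and 3.60 ± 0.554 FPKM in scrambled libraries (SD, n = 4 each). The difference of 0.92 log2 units (standard error 0.15, 95% interval 0.60 to 1.25) ranked 13 of 13912 rows by p (limma, adjusted p = 0.095; exact permutation p = 0.0286). Unlike that of Fos, it stood at nearly the same value without scrambled replicate 1, at 0.85 (limma, adjusted p = 0.187).

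Junb, the activity-induced Jun gene, was the most abundant of the 9 genes. It read 124, 132, 105 and 100.3 FPKM in anti-miR-29a replicates 1 to 4, against 42.0, 79.6, 93.1 and 76.6 FPKM in scrambled replicates 1 to 4. Its groups did not overlap, and scrambled replicate 1 was again the lowest. The difference was 0.71 log2 units (standard error 0.21; limma, adjusted p = 0.274; exact permutation p = 0.0286). Without scrambled replicate 1 it was 0.47 (standard error 0.11; limma, adjusted p = 0.254).

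Jun, the founding Jun gene, which neurons also induce after axon injury, read 14.2, 18.2, 18.4 and 18.4 FPKM in anti-miR-29a replicates 1 to 4. Scrambled replicates 1 to 4 read 11.7, 14.7, 20.9 and 21.1 FPKM. The highest 2 of the 8 libraries were scrambled and so was the lowest. The difference was 0.052 log2 units with a 95% interval of -0.36 to 0.46 (limma, adjusted p = 0.937), and it turned to -0.12 without scrambled replicate 1. In that fit its interval was -0.45 to 0.22.

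Jund, whose protein is present in resting cells, varied least among the 7 tested members, in both groups. It read 65.8, 65.4, 61.8 and 62.7 FPKM in anti-miR-29a replicates 1 to 4, against 54.3, 58.4, 65.1 and 59.7 FPKM in scrambled replicates 1 to 4. Scrambled replicate 3 lay inside the anti-miR-29a range and the other scrambled libraries below it. The difference was 0.11 log2 units with a 95% interval of -0.024 to 0.24 (limma, adjusted p = 0.541; exact permutation p = 0.114). The upper end of that interval lies below the estimated differences of Fos, Fosb, Fosl2 and Junb. These have intervals of their own, and that of Fos, 0.12 to 1.52, overlaps the one of Jund, while that of Junb begins at 0.24.

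**Figure D1:**
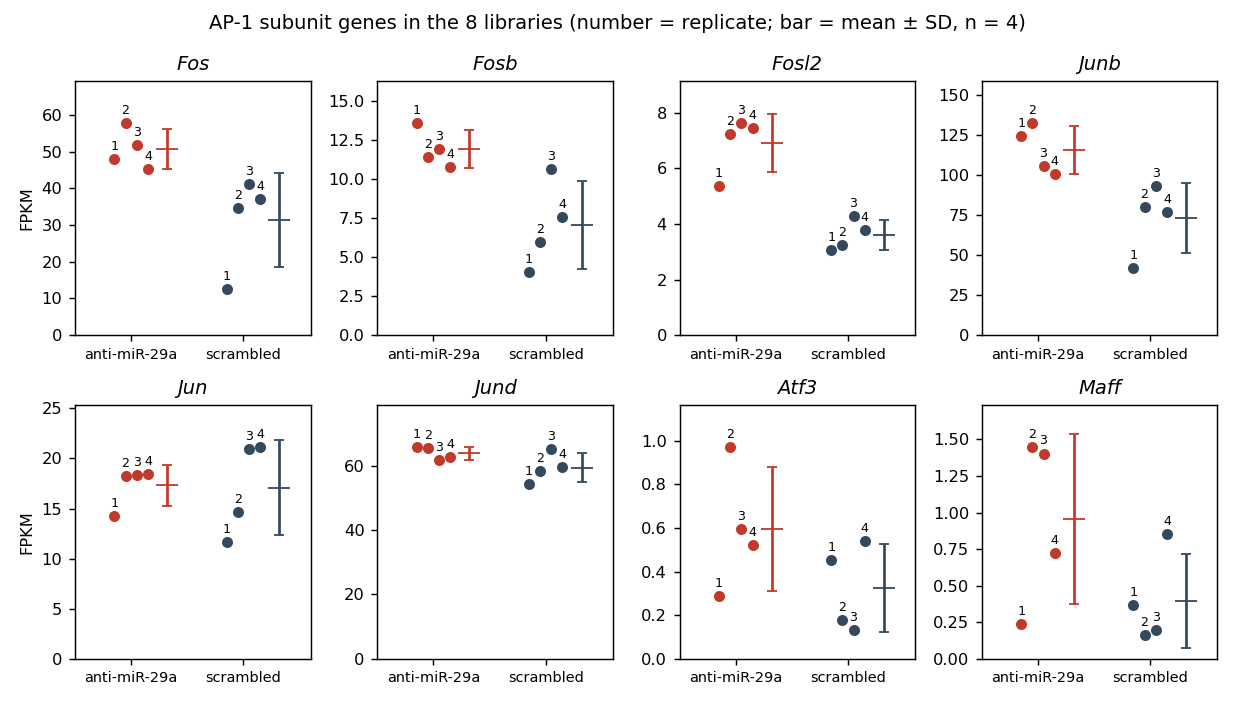
FPKM of 8 AP-1 subunit genes in each library, numbered by replicate, anti-miR-29a to the left of scrambled, with the mean ± SD (n = 4) beside the points. In Fos, Fosb, Fosl2 and Junb all anti-miR-29a points lie above all scrambled points, with scrambled replicate 1 lowest, while in Jun, Jund, Atf3 and Maff the groups overlap.

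The remaining members were near the floor. Maff read 0.239, 1.45, 1.40 and 0.724 FPKM in anti-miR-29a replicates 1 to 4, against 0.368, 0.162, 0.196 and 0.856 FPKM in scrambled replicates 1 to 4. Its groups overlapped, with anti-miR-29a replicate 1 among the low libraries and scrambled replicate 4 among the high ones (difference 1.06 log2 units, limma, adjusted p = 0.548; exact permutation p = 0.171). Its mean of 0.954 FPKM in anti-miR-29a libraries carried Maff over the filter, since its mean in scrambled libraries was 0.395 FPKM. Atf3, a stress and injury factor, was below the filter. It read 0.290, 0.971, 0.596 and 0.524 FPKM in anti-miR-29a replicates 1 to 4, against 0.454, 0.179, 0.132 and 0.539 FPKM in scrambled replicates 1 to 4, and the groups overlapped (exact permutation p = 0.171). Fosl1, which encodes Fra-1, was listed at 0 in 7 libraries and at 0.272 FPKM in anti-miR-29a replicate 2. The number of reads behind such values was not given in the files, so no detection limit can be set on them.

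**Figure D2:**
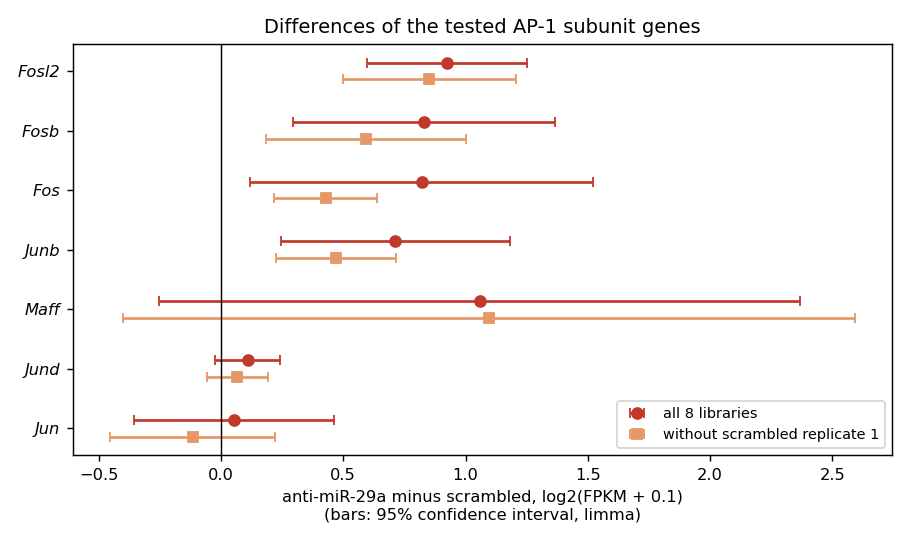
Difference between anti-miR-29a and scrambled libraries in log2(FPKM + 0.1) for the 7 tested genes with 95% confidence intervals from limma, with all 8 libraries (circles) and without scrambled replicate 1 (squares). The intervals of Fosl2, Fosb, Fos and Junb lie above 0 in both fits, and those of Maff, Jund and Jun include 0.

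The order of the levels was Junb, Jund, Fos, Jun, Fosb, Fosl2, Maff, Atf3 and Fosl1. Within the anti-miR-29a group the ranges of neighbours in this order did not overlap, except those of Maff and Atf3. Within the scrambled group Junb overlapped Jund, Fos overlapped Jun, Fosb overlapped Fosl2 and Maff overlapped Atf3. Junb exceeded Jund in 7 of the 8 libraries, scrambled replicate 1 being the exception. Of the summed FPKM of the family Junb held 40.7% to 45.7% in anti-miR-29a and 32.7% to 40.4% in scrambled libraries, and Jund 22.2% to 25.5% and 27.7% to 42.2% in the same order of groups. The Fos genes summed to 69.6 ± 5.61 FPKM in anti-miR-29a and 42.0 ± 15.7 FPKM in scrambled libraries, or 49.5 ± 6.13 FPKM without scrambled replicate 1 (SD, n = 4, 4 and 3).

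Members were then compared with each other inside each library, which removes whatever scales a whole library. This comparison was chosen after the values had been seen. For the 21 pairs of tested genes the log2 ratio was tested between groups by an exact two-sided permutation test, with adjustment over the 21 pairs. The ratio of each of Fos, Fosb, Fosl2 and Junb to each of Jun and Jund was higher in every anti-miR-29a library than in every scrambled one, giving the smallest possible p of 0.0286 in 8 pairs (exact permutation, adjusted p = 0.075). None of the 21 pairs passed after adjustment. The log2 ratio of Fosl2 to Jun was -1.31 ± 0.055 in anti-miR-29a and -2.18 ± 0.23 in scrambled libraries (SD, n = 4 each), a difference of 0.87. That of Junb to Jund was 0.84 ± 0.15 in anti-miR-29a and 0.24 ± 0.41 in scrambled libraries. Among the 6 pairs formed by Fos, Fosb, Fosl2 and Junb themselves the differences were -0.10 to 0.21, with exact permutation p of 0.371 to 0.971. Without scrambled replicate 1 these 6 differences were -0.42 (Fos over Fosl2) to 0.38 (Fosl2 over Junb), with exact permutation p of 0.0571 to 0.8. Without scrambled replicate 1 the ratios of Fos to Jun, Fosl2 to Jund and Jun to Junb had an exact permutation p of 0.0571, the other 5 of the 8 stood at 0.0286, and no pair passed after adjustment (adjusted p of at least 0.12).

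**Figure D3:**
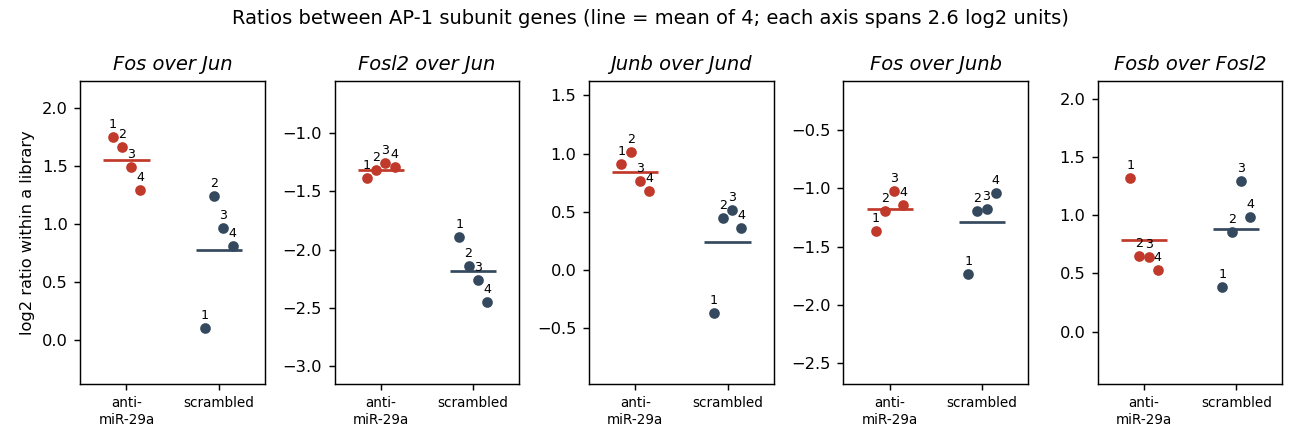
Log2 ratio between 2 AP-1 subunit genes in each library, numbered by replicate, for 5 of the 21 pairs, with the mean of each group as a line and anti-miR-29a on the left. The groups do not overlap in Fos over Jun, Fosl2 over Jun and Junb over Jund, and they overlap in Fos over Junb and Fosb over Fosl2.

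Scrambled replicate 1 was the lowest of the 8 libraries in 6 of the 7 tested members, Maff being the exception, whereas it was the lowest in 12.7% of all tested rows. Its value was 0.334 of the mean of the other scrambled libraries for Fos, 0.498 for Fosb, 0.506 for Junb, 0.617 for Jun, 0.811 for Fosl2 and 0.889 for Jund. With this library left out, 4 of the 7 members again had an unadjusted p under 0.05 and lay higher by limma (7.32% of all tested rows), 4 did not overlap (6.21% of all tested rows), and 0 passed after adjustment (0.00719% of all tested rows). They were again Fos, Fosb, Fosl2 and Junb, and the median difference of the 7 members was 0.47 log2 units.

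**Figure D4:**
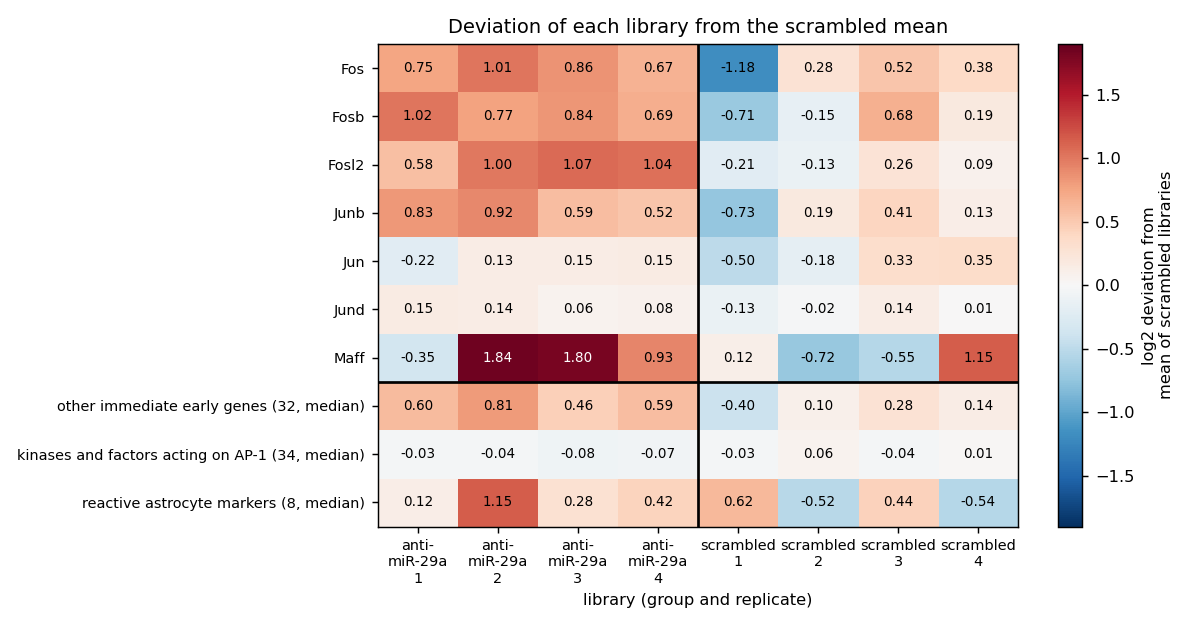
Log2 deviation of each library from the mean of the scrambled libraries for the 7 tested members, and the median deviation over 3 gene lists. Scrambled replicate 1 is low in Fos, Fosb, Junb and Jun and in the other immediate early genes at -0.40, but high in reactive astrocyte markers at 0.62. Anti-miR-29a replicate 2, the library highest in Fos, is highest in these markers at 1.15.

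Markers of other cell types were measured beside these genes, and none passed after adjustment (limma). Over all tested rows 56.6% had a positive difference. Of the 8 tested reactive astrocyte markers 8 had a positive difference, with a median of 0.50 log2 units, and the summed FPKM of all 9 markers was 229.9 to 525.4 in anti-miR-29a and 151.3 to 348.4 in scrambled libraries. The highest scrambled sum was that of replicate 1, the library in which Fos was lowest, and none of these markers was at 0 in any library. Their median deviation from the scrambled mean was highest in anti-miR-29a replicate 2, at 1.15 log2 units, and Fos was highest in the same library. It was 0.44 in scrambled replicate 3, the scrambled library highest in Fos. Activated microglia and macrophage markers had a positive difference in 7 of 7 tested genes and summed to 33.1 to 57.8 FPKM in anti-miR-29a and 26.3 to 34.5 FPKM in scrambled libraries, with Ms4a7 at 0 in scrambled replicates 2 and 3. Fibroblast markers were positive in 4 of 4 tested genes and summed to 461.0 to 703.0 FPKM in anti-miR-29a and 317.1 to 493.0 FPKM in scrambled libraries, with Lum at 0 in 1 library. Most of that sum was Ptgds, at 448.8 to 685.8 FPKM in anti-miR-29a and 307.4 to 477.3 FPKM in scrambled libraries, so the sum mainly follows 1 gene. Neuron markers summed to 2260 to 2478 FPKM in anti-miR-29a and 2300 to 2494 FPKM in scrambled libraries, and none of them was at 0 in any library. Scrambled replicate 1 also had the highest oligodendrocyte sum of all libraries, 1542 FPKM, where the anti-miR-29a libraries held 838.4 to 1119 FPKM. Of 5 tested oligodendrocyte markers 0 had a positive and 5 a negative difference. The same counts were 2 and 4 for 6 microglia markers, and 2 and 3 for 5 astrocyte markers. The part of these cells in the AP-1 values was not tested. In such tissue samples fewer cells of a type and less RNA per cell cannot be told apart.

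The promoters of the family were read from 250 bases before to 50 after the start in RefSeq (GRCm38.p6), which gave a promoter for 8 of the 9 genes and 3 for Maff. Both strands were searched for the cAMP response element (CRE) TGACGTCA, where the activity-regulated factor CREB binds, for its variants TGACGCAA (variant 1) and TGACGTAA (variant 2), and for the AP-1 site TGACTCA. The CArG box of serum response factor was searched by name, and TATAAA on the gene's own strand. The CRE core TGACGT, which lies inside the CRE and variant 2, and TGACATCA, known as a site of the Jun promoter that Jun and ATF2 bind, were added after the sequences had been seen. The stretch from 100 bases before to the 20th base of the transcript is shown for the 4 genes whose groups did not overlap and for Jun, with matches in capitals.
Fos, chr12:85473790-85473909, plus strand: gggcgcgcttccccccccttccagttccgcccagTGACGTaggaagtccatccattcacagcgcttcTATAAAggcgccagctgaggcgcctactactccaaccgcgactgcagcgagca
Fosb, chr7:19310026-19310145, minus strand: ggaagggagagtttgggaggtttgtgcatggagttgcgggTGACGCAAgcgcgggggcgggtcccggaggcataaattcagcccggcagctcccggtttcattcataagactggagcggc
Fosl2, chr5:32136372-32136491, plus strand: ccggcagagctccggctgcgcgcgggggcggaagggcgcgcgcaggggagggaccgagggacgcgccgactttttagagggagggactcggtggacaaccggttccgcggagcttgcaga
Junb, chr8:84978729-84978848, minus strand: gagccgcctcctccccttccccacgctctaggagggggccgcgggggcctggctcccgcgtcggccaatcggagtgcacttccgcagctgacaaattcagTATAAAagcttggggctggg
Jun, chr4:95052203-95052322, minus strand: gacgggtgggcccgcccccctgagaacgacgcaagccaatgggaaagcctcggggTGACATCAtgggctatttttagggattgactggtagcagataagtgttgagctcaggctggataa
Fos held the CRE core at -66 to -61 and TATAAA at -33 to -28, and Fosb held variant 1 at -60 to -53. Jun held TGACATCA at -45 to -38. Junb held TATAAA at 1 to 6 from the RefSeq start, and Fosl2 held none of the motifs. In GENCODE M21 Junb, on the minus strand, starts at 84978718. The whole stretch shown for Junb, with its TATAAA, lies before that start. Outside the stretches shown, Atf3 held variant 2 at -10 to -3, 1 Maff promoter held a full CRE at -29 to -22, and another Maff promoter TGACATCA at -45 to -38, the position it has in Jun. Among 32851 promoters of the same length a CRE was present in 1.79%, variant 1 in 0.49%, variant 2 in 0.499%, the core in 7.51%, TGACATCA in 3.62%, TATAAA in 8.32%, TGACTCA in 5.2% and a CArG box in 1.63%. No AP-1 site or CArG box was found in these windows of the family, which says nothing of more distant sequence. The Jund window, chr8:70697489-70697788, held none of the motifs. It ends before the Jund gene of GENCODE M21 begins, at 70698949, and the sequence just before that start was not searched. The Fosl2 window, chr5:32136222-32136521, lies wholly inside the Fosl2 gene of GENCODE M21, which begins at 32135801. The sequence just before that Fosl2 start was not searched either.

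**Figure D5:**
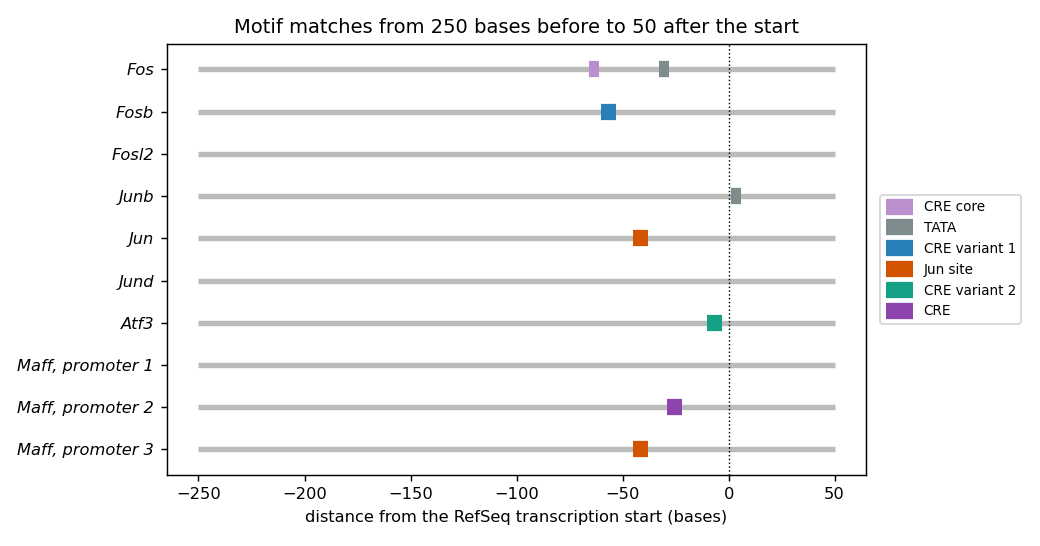
Positions of motif matches in the 10 promoters of 8 AP-1 subunit genes, in bases from the RefSeq start (dotted line). The CRE core of Fos and variant 1 of Fosb lie between 50 and 70 bases before the start, and Fosl2 and Jund hold no match. The Jund window ends before the Jund gene of GENCODE M21 begins, and the Fosl2 window lies inside the Fosl2 gene of GENCODE M21.

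Other immediate early genes mostly read higher as well. Of 32 tested genes of that list 29 had a positive difference, 23 were higher and 0 lower at an unadjusted p under 0.05, 13 were apart and higher, and 0 passed after adjustment (limma). Over all tested rows 56.6% were positive, 7.54% higher at that p and 4.02% apart and higher. The median of the list was 0.58 log2 units, and 0.41 without scrambled replicate 1. Sik1, a kinase that restrains CREB coactivators, read 5.39 ± 1.54 FPKM in anti-miR-29a and 1.88 ± 0.359 FPKM in scrambled libraries (SD, n = 4 each). Trib1, a pseudokinase gene, Ier5 and Nr4a1, a nuclear receptor gene, stood at 0.76, 0.32 and 1.07 log2 units. Adjusted p was 0.0821 to 0.22 for these 4 genes (limma).

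Genes that act on AP-1 stood close to 0, more of them below it than above. Of 34 tested kinases and factors that switch on or phosphorylate AP-1, among them CREB and serum response factor, 9 had a positive difference and 25 a negative one, with a median of -0.064 log2 units. Over all tested rows 56.6% were positive and the median was 0.026. At an unadjusted p under 0.05, 4 were lower (3.18% of all tested rows were) and 0 higher (7.54% of all tested rows were), and none passed after adjustment (limma). Among these were Rps6ka2, a ribosomal S6 kinase gene, at -0.27 log2 units, Mkl2, a coactivator of serum response factor, at -0.16, and Mef2a, an activity-dependent factor, at -0.17. Phosphorylation, by which these proteins act, was not measured.

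Of 36 tested other bZIP genes 22 had a positive difference, with a median of 0.031 log2 units, close to the 0.026 of all tested rows. By limma at an unadjusted p under 0.05, 3 were higher and 2 lower, close to the 7.54% and 3.18% of all tested rows, and 0 passed after adjustment. Nfil3, a bZIP repressor gene, stood at 0.56 log2 units and Xbp1, of the unfolded protein response, at 0.18. Creb5 and Atf6 stood at -0.78 and -0.19 with groups apart, Creb5 at 0.535 ± 0.151 FPKM in anti-miR-29a and 0.977 ± 0.121 FPKM in scrambled libraries.

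Reported targets of AP-1 had small differences as a group, more of them above 0 than below. Of 25 tested genes 20 had a positive difference, with a median of 0.12 log2 units, 3 were higher and 0 lower at an unadjusted p under 0.05, and 0 passed after adjustment (limma). Over all tested rows 56.6% were positive, the median was 0.026, and 7.54% were higher and 3.18% lower at that p. Mmp2, a matrix protease, read 2.01 ± 0.577 FPKM in anti-miR-29a and 0.844 ± 0.293 FPKM in scrambled libraries, with the groups apart (SD, n = 4 each). Cd44, a matrix receptor that is also on the reactive astrocyte list, and Tgfb1, a growth factor gene, stood at 1.12 and 0.35 log2 units with overlapping groups. Gria2, an AMPA receptor subunit gene, stood at -0.13 (limma, adjusted p = 0.484).

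Among 12 tested neuron injury genes, apart from Atf3 and Jun, 6 had a positive and 6 a negative difference, with a median of 0.0082 log2 units. Gadd45a, a DNA damage and stress response gene, and Npy, a neuropeptide gene, were the 2 with an unadjusted p under 0.05, at 0.71 and 0.25 log2 units (limma, adjusted p = 0.234 and 0.341). Over all tested rows 56.6% were positive, and 7.54% were higher and 3.18% lower at that unadjusted p. Flrt3 and Klf6 stood at -0.20 and -0.14. Gal was listed at 0 in all 8 libraries.

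Profiles over the 8 libraries were compared with that of the family by the root-mean-square distance of log2 values centred on each gene's mean, among 12709 other rows with a mean of at least 1 FPKM. Among the nearest to the mean profile of the 7 tested members were C030037D09Rik, Nfil3, the small heat shock gene Hspb3 and Gadd45b, at 0.12 to 0.18 log2 units, where the median distance of all rows was 0.43. That mean profile gives equal weight to Maff, a gene near the floor that passed the filter only through its mean in anti-miR-29a libraries. Nearest to Fos alone were Btg2, Cyr61 and Arc at 0.14 to 0.15, against a median distance of 0.65. Arc, a synaptic immediate early gene, read 189.1, 230.2, 181.8 and 163.9 FPKM in anti-miR-29a replicates 1 to 4, against 57.6, 127.3, 140.8 and 119.2 FPKM in scrambled replicates 1 to 4. As in Fos, its groups did not overlap and scrambled replicate 1 was the lowest, a likeness for which Arc was picked. In Btg2, the nearest to Fos, the groups overlapped, at 19.5 to 26.4 FPKM in anti-miR-29a and 6.65 to 23.7 FPKM in scrambled libraries.

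The libraries held similar numbers of gene rows at 1 FPKM or more, 12538 to 12769. The labels give about 30 M reads a sample, and the reads mapped in each library were not given in the files. Over all tested rows 1049 were higher and 443 lower at an unadjusted p under 0.05 (limma). That split depended on the scaling, with 713 higher and 797 lower after quantile normalization, 748 higher and 731 lower after median centring, and 560 higher and 507 lower with the length and GC trend removed. The differences of Fos, Fosb, Fosl2 and Junb were positive under all 3. The level of miR-29a itself was not measured in these mRNA libraries.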

How the data were processed

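The deposited table gives 1 FPKM value for each gene and library. The submitters' processing notes name CASAVA 1.8.2, Bowtie, Cuffnorm and mm10, and the sources used here do not give the annotation, filters or library scaling. The library kit named in the labels' protocols does not mark strand, so antisense reads are counted with a gene. From these FPKM values log2(FPKM + 0.1) was fitted across all genes with limma 3.58.1 (R 4.3.3), with 1 term for the group and a trended prior variance, for rows with a mean of at least 0.5 FPKM. Single genes were also tested by exact permutation over 70 relabellings (35 without scrambled replicate 1). The fit was tested on simulated data. Gene models came from GENCODE M21, the assembly of mm10, and 98.4% of symbols matched. Genes named beside the members are up to 4 of smallest p in each list and the nearest profiles, of which some are not reported here. The members, lists and tests were chosen with earlier results of these data known. Alternatives were other pseudocounts, filters, scalings, weights, robust empirical Bayes, a replicate block, a length and GC correction and leaving out each library.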

Additional observations from a re-analysis of the deposited data

Results flagged for a closer look

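In 16 groups of 4 libraries (8 genes in each group of samples, on the log2 scale), 3 had a library far from the others, where chance gives about 1 in 20. Each value is the gap of that library to its nearest neighbour as a share of the group's whole range. In the scrambled group Fos had a gap of 0.858, with replicate 1 lowest at 12.6 FPKM. In the anti-miR-29a group replicate 1 was lowest both for Fosl2, with a gap of 0.857 at 5.37 FPKM, and for Jun, with a gap of 0.959 at 14.2 FPKM. The cause was not tested.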

How the results depend on the processing

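In none of the 19 alternatives did an AP-1 subunit gene pass the adjusted threshold (limma). When a library was left out, 3 to 5 of the tested genes were higher at an unadjusted p under 0.05 (limma). In the same fits 754 to 1136 of all 13912 tested rows were higher at that p. Fos missed that unadjusted threshold under robust empirical Bayes (0.82 log2 units) and without anti-miR-29a replicate 2 or 3 (0.76 and 0.81). Fosl2 had an adjusted p of 0.0562 to 0.308, and Fos, Fosb and Junb of 0.168 to 0.632. The median of the members was 0.47 without scrambled replicate 1 and at most 0.89 when another library was left out. Jun turned to -0.025 with the length and GC trend removed, to -0.12 without scrambled replicate 1 and to -0.0068 without scrambled replicate 2, and reached 0.17 without another library. Jund had an unadjusted p under 0.05 without scrambled replicate 3 (0.15), and Maff without anti-miR-29a replicate 1 or scrambled replicate 4 (1.53 and 1.44). Maff ranged from 0.46 with a pseudocount of 1 to 1.53 without anti-miR-29a replicate 1. Over all rows limma called 2 genes. It called 1 with no filter, 1 with a mean of at least 5 FPKM, 1 with the length and GC trend removed, 10 with robust empirical Bayes, 0 among rows with a transcript of at least 200 nt, and 1 to 3 when a library was left out. The causes were not tested. Same-numbered libraries did not deviate together (correlations of -0.106 to 0.014, and 0 of 8 libraries closest to their own number). With the replicate block 0 genes were called over all rows and 0 of the members passed (limma). In that fit 4 members were higher at an unadjusted p under 0.05, and the median difference of the members was 0.82. Of all 13912 tested rows 1044 were higher and 432 lower at that p. Depth is unknown, which limits Maff, Atf3 and Fosl1 most.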
